A study of Mus musculus with 6 samples.

Results

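The cytochrome P450 genes of the Cyp2a and Cyp2d subfamilies were examined in the kidneys of *Ptpn6*+/mev and wild-type mice after renal ischemia-reperfusion injury (IRI). The members were the 8 genes *Cyp2a4*, *Cyp2a5*, *Cyp2d9*, *Cyp2d10*, *Cyp2d11*, *Cyp2d12*, *Cyp2d22* and *Cyp2d26*, taken by gene symbol from the 21367 genes of the table, 2 from Cyp2a and 6 from Cyp2d. They were chosen with their levels in these same libraries known, so their values by genotype are given below as a description, and the false discovery rates (FDR) beside them are not independent support. *Ptpn6*+/mev mice carry 1 viable motheaten allele of *Ptpn6*, a splice-site mutation in the gene for the phosphatase SHP-1, on a C57BL/6 background, and the controls were wild-type littermates. There were 3 mice of each genotype, all 7 weeks old. In every mouse the right kidney was resected, the left pedicle was clamped for 34 min, and the left kidney was taken at 24 h of reperfusion for poly-A mRNA sequencing, so every library comes from an injured kidney and no kidney without IRI was analysed here. The labels do not give the sex of the mice.

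Cytochrome P450 enzymes of these subfamilies sit in the membrane of the endoplasmic reticulum, where they insert oxygen into drugs, steroids and other small lipophilic molecules using electrons passed on by P450 oxidoreductase. They are best known from the liver, and in the kidney such enzymes are found mostly in proximal tubule cells. Several of the mouse genes are expressed differently in males and females, and both subfamilies lie in clusters of similar genes that arose by duplication.

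The members differ in how alike they are to each other, which bears on how well reads can be assigned to them. *Cyp2a4*, which encodes a steroid hydroxylase, lies on chromosome 7 from 26307169 to 26315088 on the plus strand of GRCm38 and has 9 exons, the first of which overlaps an exon of the annotated gene *Gm42375*. *Cyp2a5*, which encodes coumarin hydroxylase, lies downstream on the same strand from 26835305 to 26843548, also with 9 exons. Their coding sequences, each 1482 bases in the GENCODE M21 transcripts, differed at 23 positions and were 98.45% identical, with 216 bases as the longest identical run. The stretch from coding base 596 to 655 is shown because it holds 4 of the differences, which are in capitals and are what lets a read be placed in one gene or the other.
Cyp2a4: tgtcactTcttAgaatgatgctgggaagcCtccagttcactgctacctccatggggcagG
Cyp2a5: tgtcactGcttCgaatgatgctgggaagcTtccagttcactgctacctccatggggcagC

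Windows of 150 bases, the read length, that occurred unchanged in the other gene made up 4.22% of those in the *Cyp2a4* transcript and 3.59% of those in the *Cyp2a5* transcript. Both genes had fractional counts in all 6 libraries, as happens when a read is shared between genes, so the split between *Cyp2a4* and *Cyp2a5* is uncertain while their sum is less so.

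The Cyp2d members lie on chromosome 15 of GRCm38. In order along it they are *Cyp2d22* from 82370527 to 82380260, *Cyp2d11* from 82389154 to 82394022, *Cyp2d10* from 82402846 to 82407195, *Cyp2d9* from 82433437 to 82456845, *Cyp2d12* from 82555072 to 82560403 and *Cyp2d26* from 82790101 to 82794294. *Cyp2d9* and *Cyp2d12* are on the plus strand and the other members are on the minus strand. The coding sequence of *Cyp2d9* was 92.13% identical to that of *Cyp2d12*, 92.46% to that of *Cyp2d10* and 93.32% to that of *Cyp2d11*. *Cyp2d22* and *Cyp2d26* were the more distant members, at 78.48% identity to each other and between 77.93% and 82.2% to the rest. Counts of all Cyp2d members were whole numbers in every library, and at most 1.00% of the windows of 150 bases in a pair that included *Cyp2d9*, *Cyp2d12*, *Cyp2d22* or *Cyp2d26* were shared. Annotated small RNA genes overlap exons of *Cyp2d9*, *Cyp2d10*, *Cyp2d11* and *Cyp2d12*.

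Promoter sequence was read from RefSeq (GRCm38.p6), which held windows from 250 bases before to 50 after the gene start for 6 of the 8 members. RefSeq's gene starts are not always those of the GENCODE positions above: the *Cyp2d9* stretch lies inside the gene as GENCODE places it, and that of *Cyp2d26* overlaps its first bases. The part from 110 to 41 bases before the start is printed in the direction of the gene, because it holds the motif matches that these promoters have in common, and capitals mark the matches. In the pair of Cyp2a promoters they mark TTGCNNAA, a pattern of the kind bound by C/EBP proteins, and CAAAGTCC.
Cyp2a4, chr7:26307082-26307151, plus strand: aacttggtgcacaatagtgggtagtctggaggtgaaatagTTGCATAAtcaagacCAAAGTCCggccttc
Cyp2a5, chr7:26835229-26835298, plus strand: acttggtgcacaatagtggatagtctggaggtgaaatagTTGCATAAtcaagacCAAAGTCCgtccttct

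The promoter windows of *Cyp2a4* and *Cyp2a5* differed at 5 of 299 aligned bases, an identity of 98.33% beside the 98.45% of the coding sequences. In the Cyp2d promoters the capitals mark CAAAGNGCA, which resembles part of the direct repeats bound by HNF4A and by PPAR-RXR dimers and overlaps none of the other motifs there.
Cyp2d9, chr15:82452267-82452336, plus strand: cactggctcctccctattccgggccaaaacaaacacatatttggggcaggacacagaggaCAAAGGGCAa
Cyp2d10, chr15:82407235-82407304, minus strand: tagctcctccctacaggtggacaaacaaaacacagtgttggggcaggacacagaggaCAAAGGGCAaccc
Cyp2d11, chr15:82394063-82394132, minus strand: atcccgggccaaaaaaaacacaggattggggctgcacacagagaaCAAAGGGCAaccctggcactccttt
Cyp2d26, chr15:82794286-82794355, minus strand: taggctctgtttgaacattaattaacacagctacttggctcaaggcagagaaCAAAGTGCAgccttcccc

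CAAAGNGCA was found in 4 of the 6 promoter windows of members, all of Cyp2d, and in 1.35% of all 32544 promoter windows when both strands were searched. CAAAGTCC, found in both Cyp2a windows, occurred in 1.43% of all windows, and TTGCNNAA, found in the same pair, in 10.8%. TTANGTAA, a pattern of the kind bound by DBP, TEF and HLF, was in none of the 6 and in 2.29% of all windows. The motifs were picked with these sequences in view, and a match is a description of the letters only. *Cyp2d9*, *Cyp2d10*, *Cyp2d11* and *Cyp2d26* all had CAAAGNGCA, although *Cyp2d10* and *Cyp2d11* were at or near 0 in these kidneys.

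Levels are given as FPKM, a fragment number corrected for how long the transcript is and how deep the library, which allows genes of different length to be compared. Fold changes are log2 fold changes of *Ptpn6*+/mev against wild-type from edgeR's quasi-likelihood test on counts, with the standard error (SE), and the FDR is the Benjamini-Hochberg adjusted p over the 13036 genes tested. Counts summed to between 10271590 and 10760551 in the *Ptpn6*+/mev libraries and to between 10788317 and 12361745 in the wild-type libraries. Replicates of a group differed by more than counting noise, at 6.27 to 43.3 chi-square units for each degree of freedom, and wild-type 2 stood apart, with a summed FPKM of 5 endothelial markers of 75.8 against 147 to 167 in the other 5 libraries and *Kap*, an androgen-dependent kidney gene, at 10201 against 1520 to 2882. Values of members, medians of gene lists and values of named genes that turn or move by more than 1.5 times without wild-type 2 are therefore also given without it. The mean level of *Ptpn6* itself was 13.4 ± 1.42 FPKM in *Ptpn6*+/mev and 14.6 ± 3.38 in wild-type libraries (SD, n = 3 each), with a log2 fold change of -0.19 (SE 0.17, FDR 0.715), and -0.34 without wild-type 2. Since the allele is a splice-site mutation, this level does not check the labels.

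*Cyp2d9* and *Cyp2d12* were the members with the largest difference between the genotypes and the only ones with an FDR under 0.05. *Cyp2d9* encodes a testosterone hydroxylase that is male-biased in mouse liver. The 3 *Ptpn6*+/mev kidneys, replicates 1 to 3, held 4.82, 4.95 and 3.65 FPKM, and the wild-type kidneys 12.48, 15.18 and 15.00. Every *Ptpn6*+/mev kidney was below every wild-type kidney, and the spread within each genotype was small beside the distance between them. The means were 4.47 ± 0.72 (SD, n = 3) and 14.2 ± 1.51 (SD, n = 3), a ratio of 3.18, and the log2 fold change was -1.74 (SE 0.18, FDR 0.0200). These values rest on 82, 85 and 65 counts against 223, 276 and 307.

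*Cyp2d12*, a close relative of *Cyp2d9* in the same cluster, was lower in level and further apart between the genotypes. Its FPKM was 2.04, 1.61 and 1.72 in *Ptpn6*+/mev and 5.55, 7.87 and 10.64 in wild-type replicates 1, 2 and 3. The *Ptpn6*+/mev kidneys lay close together, while the wild-type kidneys spread from 5.55 to 10.64 and did not overlap them. The means were 1.79 ± 0.22 (SD, n = 3) and 8.02 ± 2.55 (SD, n = 3), a ratio of 4.48, with a log2 fold change of -2.23 (SE 0.28, FDR 0.0391). The counts behind them were low, 34, 27 and 30 against 97, 140 and 213. The paper's text names *Cyp2d12* among the highly overexpressed genes of *Ptpn6*+/mev mice, whereas here it was lower in them.

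Both calls were lost when any 1 *Ptpn6*+/mev library was left out and held without any 1 wild-type library. Without *Ptpn6*+/mev 1, 2 or 3 the FDR of *Cyp2d9* was 0.103, 0.0670 and 0.148, and that of *Cyp2d12* was 0.190, 0.106 and 0.282. A block on the replicate number, which is not known to pair the mice, also ended both calls (FDR 0.0892 and 0.141). The log2 fold changes moved little when any 1 of the 6 libraries was left out, between -1.84 and -1.61 for *Cyp2d9* and between -2.45 and -2.0 for *Cyp2d12*.

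**Figure D1:**
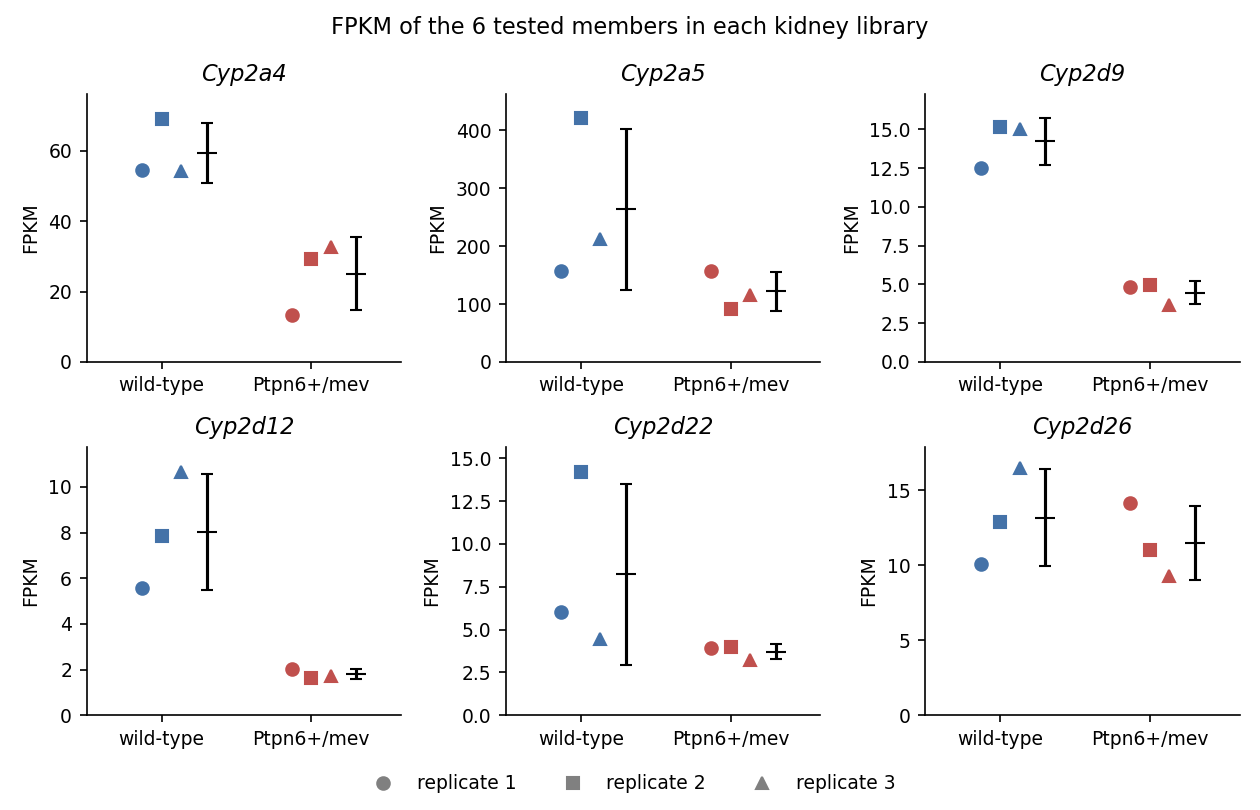
FPKM (vertical axis, linear from 0) of the 6 members that passed the filter on low counts, in each kidney library, with wild-type on the left and *Ptpn6*+/mev on the right of each panel, the marker shape giving the replicate number, and the mean and SD (n = 3) drawn beside the points. The groups are apart for *Cyp2a4*, *Cyp2d9*, *Cyp2d12* and *Cyp2d22* and overlap for *Cyp2a5* and *Cyp2d26*, and wild-type 2 is far above the other libraries for *Cyp2a5* and *Cyp2d22*.

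For *Cyp2d26*, which encodes a drug-oxidising enzyme of the subfamily, the genotypes were close. Its FPKM was 14.16, 11.05 and 9.29 in *Ptpn6*+/mev and 10.11, 12.91 and 16.52 in wild-type replicates 1, 2 and 3. The groups overlapped, with a mean of 11.5 ± 2.47 (SD, n = 3) against 13.2 ± 3.21 (SD, n = 3). The log2 fold change was -0.27 (SE 0.22, FDR 0.697), within the spread between replicates, and it moved between -0.44, without *Ptpn6*+/mev 1 or wild-type 1, and -0.10, without wild-type 3, when 1 library was left out.

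*Cyp2d22*, often taken as the mouse counterpart of human CYP2D6, had an FPKM of 3.92, 3.99 and 3.21 in *Ptpn6*+/mev and 6.0, 14.22 and 4.42 in wild-type replicates 1, 2 and 3. The groups did not overlap, but wild-type 3 was close to the *Ptpn6*+/mev kidneys and wild-type 2 was far above all others. The log2 fold change was -1.24 (SE 0.43, FDR 0.301) with all libraries and -0.53 without wild-type 2, so that library carried most of it.

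*Cyp2d10* and *Cyp2d11* were at or near 0. *Cyp2d10* had 2 counts in wild-type 3, an FPKM of 0.1, and no count in the other 5 libraries, and *Cyp2d11* had no count in any library. A count of 0 allows up to 3 counts, which is 0.243 to 0.292 CPM (counts scaled to the library total) depending on the library, so lower levels could not be seen at this depth. Neither was tested, and no fold change is given for them. Of the other Cyp2a and Cyp2d genes, *Cyp2d34* had 1 count, in wild-type 1, and *Cyp2a12*, *Cyp2a22*, *Cyp2d37-ps* and *Cyp2d40* had none.

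*Cyp2a4* and *Cyp2a5* were the most abundant members. The FPKM of *Cyp2a4* was 13.28, 29.22 and 32.69 in *Ptpn6*+/mev and 54.67, 69.18 and 54.28 in wild-type replicates 1, 2 and 3. Every *Ptpn6*+/mev kidney was below every wild-type kidney, and *Ptpn6*+/mev 1 was lowest by far. The means were 25.1 ± 10.4 (SD, n = 3) and 59.4 ± 8.49 (SD, n = 3), with a log2 fold change of -1.32 (SE 0.30) and an FDR of 0.133 that did not pass the threshold. The FDR was 0.00282 with edgeR's exact test and 0.000779 with DESeq2, and it ranged from 0.000779 to 0.394 over the 15 alternatives, 2 of which passed.

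The FPKM of *Cyp2a5* was 157.18, 91.91 and 116.24 in *Ptpn6*+/mev and 156.85, 420.84 and 212.53 in wild-type replicates 1, 2 and 3. *Ptpn6*+/mev 1 and wild-type 1 had nearly the same value, so the groups overlapped, and wild-type 2 was far above the rest. The means were 122 ± 33.0 (SD, n = 3) and 263 ± 139 (SD, n = 3), with a log2 fold change of -1.21 (SE 0.38, FDR 0.245) that became -0.64 without wild-type 2.

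Of the 6 members tested, 2 had an FDR under 0.05, both lower in *Ptpn6*+/mev, and 3 with edgeR's exact test and with DESeq2. Over all 13036 genes tested, 9 were lower at that threshold, which is 0.069%, and 18 changed in either direction, 0.138%. Without wild-type 2, 144 of 13177 genes were lower, which is 1.09%, and the same number of members, 2. By edgeR's exact test 1.78% of all genes tested were lower, and by DESeq2 1.69%. The FPKM of every *Ptpn6*+/mev kidney was below that of every wild-type kidney in 4 of the 6 members, and in 6.38% of all genes tested. A log2 fold change under -1 was found in 5 of the 6 members, against 1.1% of all genes, and in 3 without wild-type 2, against 0.88%. Of the 6, 5 had an unadjusted p under 0.05 and were lower, against 6.71%. The median log2 fold change was -1.28 over the 6 members and -0.002 over all genes tested. Without wild-type 2 the median of the members was -0.90, with all 6 still lower. As the members were picked on this contrast, these shares are given side by side and nothing is read from them.

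**Figure D2:**
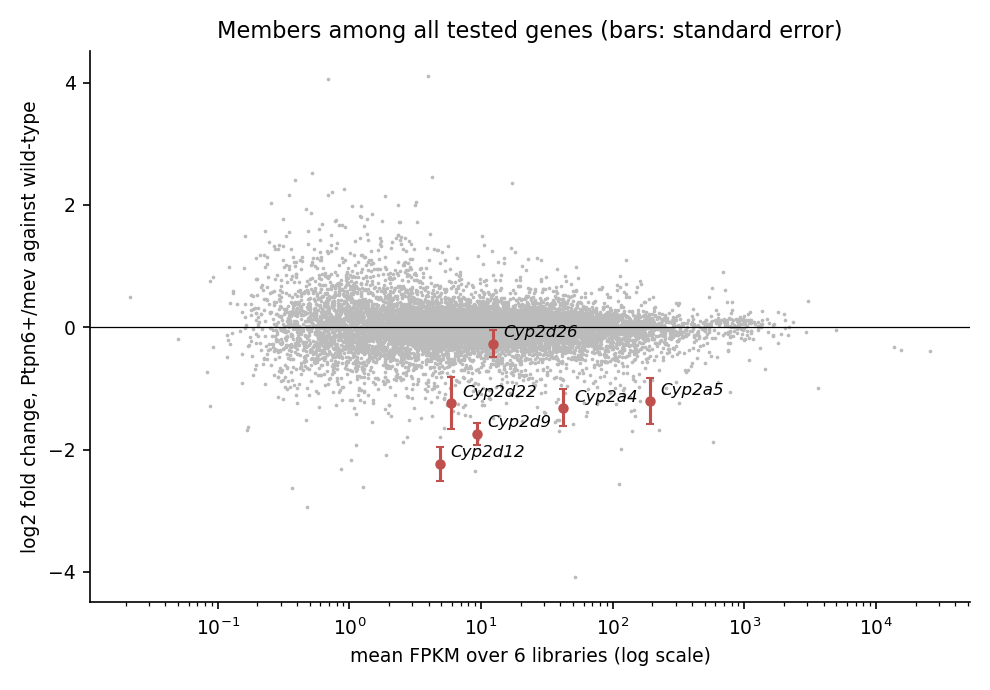
Log2 fold change of *Ptpn6*+/mev against wild-type (vertical axis) plotted against the mean FPKM over the 6 libraries (horizontal log axis) for all tested genes in grey and the 6 tested members in red, with their standard errors as bars. *Cyp2d12* at -2.23 and *Cyp2d9* at -1.74 lie furthest from 0 among the members, and *Cyp2d26* at -0.27 lies within the cloud of other genes.

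The members were also ordered by level within each genotype. In wild-type kidneys the mean FPKM ran from *Cyp2a5* and *Cyp2a4* through *Cyp2d9* at 14.2 and *Cyp2d26* at 13.2 to *Cyp2d22* at 8.21 and *Cyp2d12* at 8.02, and within neither of the last pairs, *Cyp2d9* with *Cyp2d26* and *Cyp2d22* with *Cyp2d12*, did the levels differ beyond their spread. In *Ptpn6*+/mev kidneys *Cyp2d26*, at 11.5, stood above *Cyp2d9*, at 4.47, in every library, and *Cyp2d22*, at 3.71, stood above *Cyp2d12*, at 1.79.

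The relation of *Cyp2d9* to *Cyp2d26* was compared within each library, where depth and scaling cancel. *Cyp2d9* and *Cyp2d12* were the called members and *Cyp2d26* was not. Ratios of the called members to *Cyp2d26* therefore restate the differences above and are not independent support. The ratio of their FPKM values was 0.340, 0.448 and 0.393 in *Ptpn6*+/mev and 1.23, 1.18 and 0.908 in wild-type replicates 1, 2 and 3. The groups did not overlap. The ratio of *Cyp2d12* to *Cyp2d26* was also apart, at 0.144, 0.146 and 0.185 against 0.549, 0.610 and 0.644. By contrast the ratio of *Cyp2d12* to *Cyp2d9* overlapped between the genotypes, with means of 0.407 ± 0.0744 and 0.557 ± 0.137 (SD, n = 3 each), and so did that of *Cyp2d22* to *Cyp2d26*. The ratio of *Cyp2a4* to *Cyp2a5* was 0.0845, 0.318 and 0.281 against 0.349, 0.164 and 0.255, so the groups overlapped, and the lowest value was that of *Ptpn6*+/mev 1.

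Summed over the subfamily, Cyp2d had an FPKM of 24.94, 21.60 and 17.87 in *Ptpn6*+/mev and 34.14, 50.18 and 46.68 in wild-type replicates 1, 2 and 3. The groups were apart, with means of 21.5 ± 3.54 and 43.7 ± 8.43 (SD, n = 3 each), and the difference of the mean log2 values was -1.02. *Cyp2d26* made up 53.3 ± 3.03% of the sum in *Ptpn6*+/mev kidneys and 30.2 ± 4.86% in wild-type kidneys (SD, n = 3 each). The share of *Cyp2d9* was 20.9 ± 1.84% against 33.0 ± 3.24%, and that of *Cyp2d12* was 8.42 ± 1.11% against 18.2 ± 3.95%. Without *Cyp2d26* the difference of the sums was -1.60.

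The sum of *Cyp2a4* and *Cyp2a5*, which depends on how reads were split between them only through their transcript lengths of 1738 and 2013 bases, was 170.46, 121.13 and 148.93 in *Ptpn6*+/mev and 211.52, 490.02 and 266.81 in wild-type replicates 1, 2 and 3. The groups were apart, the highest *Ptpn6*+/mev value being 170.46 and the lowest wild-type value 211.52. The means were 147 ± 24.7 and 323 ± 147 (SD, n = 3 each), and the difference of the mean log2 values was -1.06 with all libraries and -0.71 without wild-type 2. *Cyp2a5* held 82.0 ± 8.87% of the sum in *Ptpn6*+/mev and 79.9 ± 5.87% in wild-type kidneys (SD, n = 3 each), a difference smaller than its spread.

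**Figure D3:**
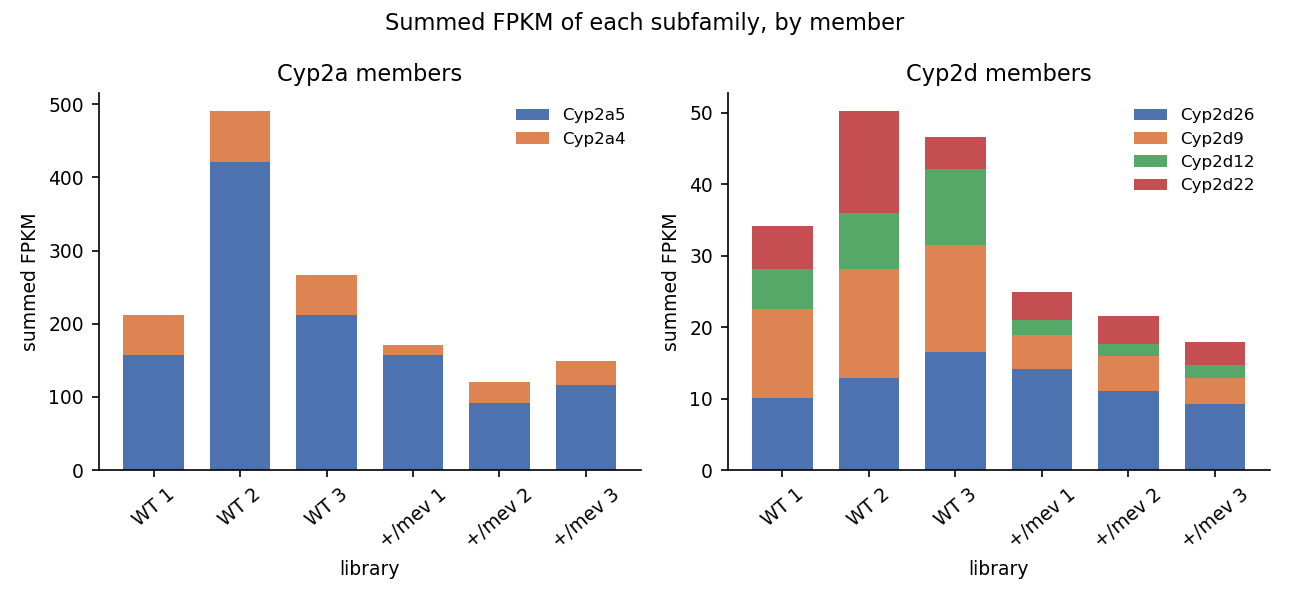
Summed FPKM (vertical axis, from 0) of the Cyp2a members on the left and the Cyp2d members on the right in each library, with 1 bar per kidney divided by member. In the Cyp2d panel the *Cyp2d26* segment is of like height in both genotypes, 11.5 and 13.2 on average, while the segments above it are shorter in *Ptpn6*+/mev, and in the Cyp2a panel wild-type 2 is the tallest bar at 490.02.

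No gene around the clusters passed the threshold, by edgeR's quasi-likelihood or exact test or by DESeq2. Of 17 genes listed for the neighbourhood of Cyp2a on chromosome 7, 9 were tested and none passed the threshold, with 1 lower at an unadjusted p under 0.05 and a median log2 fold change of 0.01, or -0.06 without wild-type 2. Its most abundant genes were *Egln2*, at 0.05 and 0.01 without wild-type 2, and *Snrpa*, at 0.01 and -0.06. Of the Cyp2d neighbours on chromosome 15, 10 were tested, none passed, 1 was lower at an unadjusted p under 0.05, and the median was -0.03, or -0.10 without wild-type 2, with *Ndufa6* at -0.27 and *Smdt1* at -0.02 (-0.13 and -0.01 without it). Of 39 other drug-metabolising genes of the Cyp1 to Cyp3 families, 38 were in the table, 21 of these had no count in any library, 11 were tested, and none passed by any of these tools, with 1 lower and 1 higher at an unadjusted p under 0.05. Their median was -0.29, or -0.20 without wild-type 2. *Cyp2j5*, an arachidonic acid epoxygenase of the kidney, had a log2 fold change of -0.37 (SE 0.17, FDR 0.437), and -0.20 without wild-type 2. *Cyp2e1*, which oxidises ethanol, had -0.78 (SE 0.25, FDR 0.248), and -0.41 without wild-type 2.

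Genes that serve the P450 enzymes were also examined. Of 9 genes for electron donors and haem metabolism, none passed the threshold in edgeR's quasi-likelihood test and 2 were lower with the exact test, with DESeq2 and without wild-type 2. At an unadjusted p under 0.05, 3 were lower, and the median was -0.21, or -0.13 without wild-type 2. *Por*, the oxidoreductase that passes electrons to the microsomal P450 enzymes, had an FPKM of 117, 122 and 117 in *Ptpn6*+/mev and 155, 134 and 160 in wild-type replicates 1, 2 and 3. The groups were apart, with a log2 fold change of -0.41 (SE 0.07, FDR 0.0852, and 0.0294 without wild-type 2). *Cyb5a*, the cytochrome b5 that can donate an electron to some P450 enzymes, had -0.30 (SE 0.09, FDR 0.228), and *Hmox1*, which degrades haem, had -0.50 (SE 0.09, FDR 0.0873, and 0.0287 without wild-type 2), and both were also apart between the groups.

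Among 20 transcription factor genes with known roles in liver and proximal tubule expression, 19 were tested and none passed the threshold in edgeR's quasi-likelihood test, while 5 were lower with the exact test and 6 with DESeq2. At an unadjusted p under 0.05, 8 were lower and none was higher, and the median was -0.20, or -0.31 without wild-type 2. *Hnf4a*, a master regulator of proximal tubule and liver genes, had an FPKM of 164, 142 and 126 in *Ptpn6*+/mev and 203, 158 and 167 in wild-type replicates 1, 2 and 3, so the groups overlapped (log2 fold change -0.36, SE 0.13, FDR 0.308). *Nr1h4*, the bile acid receptor, had -0.06 (SE 0.22, FDR 0.952), and 0.08 without wild-type 2. The groups were apart for *Cebpa*, *Dbp*, *Tef* and *Nr1i2*, among others, and these 4 were singled out after their values were seen.

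*Nr1i2*, the xenobiotic receptor PXR, had an FPKM of 3.61, 3.01 and 2.68 against 5.50, 5.90 and 5.81 (log2 fold change -0.96, SE 0.17, FDR 0.0852). *Cebpa* had 14.8, 18.1 and 17.2 against 23.6, 22.4 and 22.3 (-0.51, SE 0.10, FDR 0.104). *Tef*, a clock-controlled factor related to *Dbp*, had 28.9, 30.9 and 32.3 against 46.8, 43.6 and 34.4 (-0.51, SE 0.14, FDR 0.193). All 3 were lower in each *Ptpn6*+/mev kidney than in any wild-type kidney. With all libraries, none passed the threshold in edgeR's quasi-likelihood test. By the exact test *Nr1i2* (FDR 0.000674) and *Cebpa* (FDR 0.00899) passed and *Tef* (FDR 0.0639) did not. By DESeq2 *Nr1i2* (FDR 0.00133), *Cebpa* (FDR 0.00962) and *Tef* (FDR 0.0495) all passed. When 1 library was left out of the quasi-likelihood test, *Nr1i2* passed without wild-type 2 (FDR 0.0372) and *Tef* without wild-type 3 (FDR 0.0465). Neither did without any other library. *Dbp*, a clock-controlled factor known to act on *Cyp2a4* and *Cyp2a5* in liver, had an FPKM of 13.2, 34.8 and 26.0 against 58.9, 47.6 and 49.1 (-1.17, SE 0.29, FDR 0.159), with fractional counts in all 6 libraries.

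**Figure D4:**
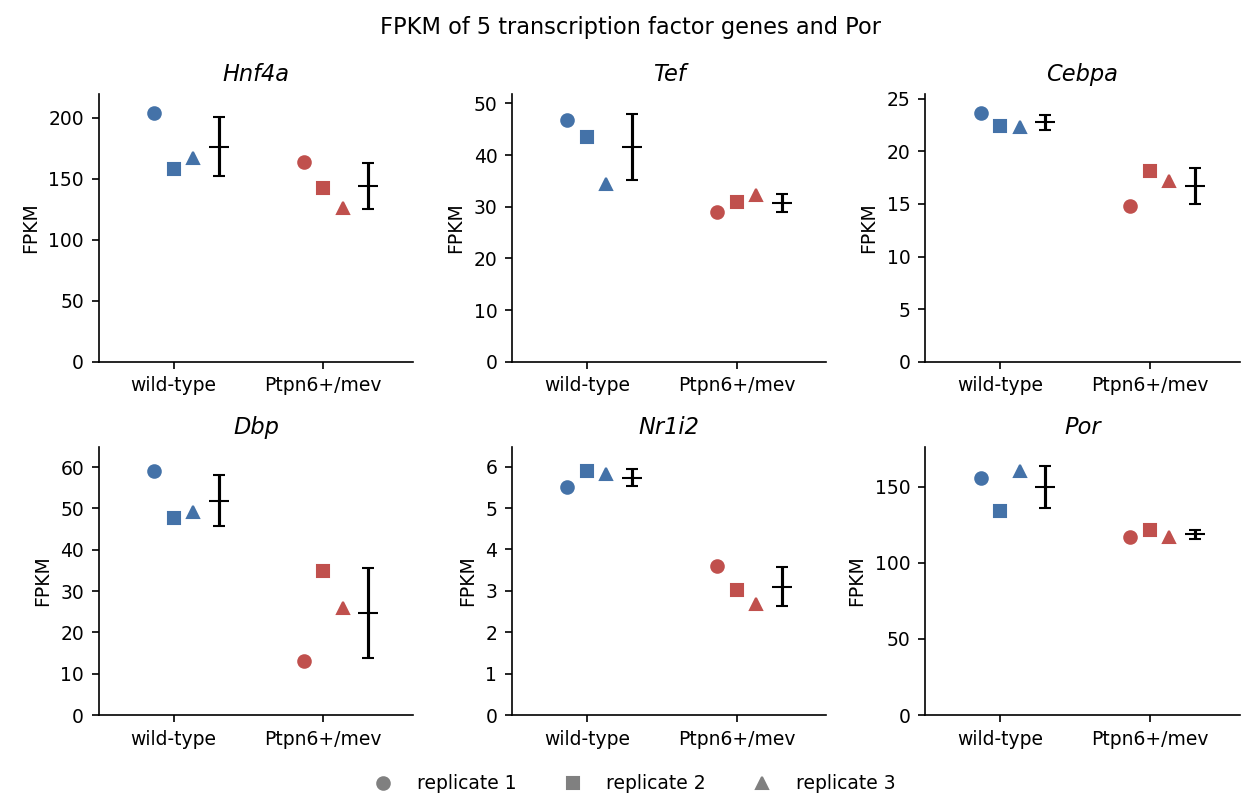
FPKM (vertical axis, linear from 0) of 5 transcription factor genes and *Por* in each library, wild-type on the left and *Ptpn6*+/mev on the right, with the marker shape giving the replicate number and the mean and SD (n = 3) beside the points. The groups overlap for *Hnf4a* and are apart for *Tef*, *Cebpa*, *Dbp*, *Nr1i2* and *Por*, of which *Dbp* has the widest spread among *Ptpn6*+/mev kidneys, from 13.2 to 34.8.

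Sex and hormone genes bear on the members because several of them are sex-biased in liver. The 4 Y-linked genes were detected in every library, with summed FPKM of 11.9 to 14.9 in *Ptpn6*+/mev and 10.2 to 19.4 in wild-type kidneys and a median log2 fold change of -0.05, *Eif2s3y* at -0.03 and *Ddx3y* at -0.13. These values rested on wild-type 2, without which all 4 were above 0, with a median of 0.20, *Eif2s3y* at 0.61 and *Ddx3y* at 0.38. None of the 8 male-biased kidney genes passed the threshold (1 lower, *Cyp4a12a*, with the exact test, with DESeq2 and without wild-type 2), 3 were lower and 1 was higher at an unadjusted p under 0.05, and the median was -0.43, or 0.05 without wild-type 2. *Odc1* had 0.49 (FDR 0.297) and 0.32 without wild-type 2, and *Kap* had -0.99 (SE 0.64, FDR 0.604) with all libraries and 0.33 without wild-type 2, so its direction rested on that library. Of the hormone receptors none of 5 passed (1 lower, *Prlr*, with the other 2 tools) and 3 were lower at an unadjusted p under 0.05, with *Ghr*, the growth hormone receptor, at -0.41 (SE 0.11, FDR 0.196) and *Nr3c1*, the glucocorticoid receptor, at 0.04 (SE 0.11, FDR 0.923, and -0.06 without wild-type 2). *Prlr*, the prolactin receptor, which is female-biased, was low in all libraries and had -1.55 (SE 0.32, FDR 0.104), and the other tested female-biased gene, *Cyp4a14*, had -2.57 (SE 0.65, FDR 0.168). Neither passed the threshold, and both were lower at an unadjusted p under 0.05 and with the exact test, 1 of them also with DESeq2. When 1 library was left out, *Cyp4a14* ranged from -3.05 to -1.73 and passed without wild-type 3 (FDR 0.0166). The paper counts *Cyp4a14* among the PPARα pathway genes lower in *Ptpn6*+/mev mice after IRI, at its own FDR under 0.05.

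Cell type markers were set beside the members because bulk tissue was measured, in which fewer cells of a type and less RNA per cell cannot be told apart. All 14 proximal tubule markers were detected, and their summed FPKM was 1379 to 1566 in *Ptpn6*+/mev and 1810 to 1977 in wild-type kidneys, so these groups were apart as well. Of the 14, 1 passed the threshold, *Slc22a8*, an organic anion transporter, with a log2 fold change of -0.91 (SE 0.12, FDR 0.0443, and 0.0116 to 0.343 when 1 library was left out, passing only without wild-type 2), against 5 lower with the exact test and with DESeq2. A further 6 were lower at an unadjusted p under 0.05, none was higher, and the median was -0.44, with *Slc27a2* at -0.40 and *Slc34a1* at -0.34. With all libraries 12 of the 14 were below 0, while *Gatm* at 0.43 and *Slc5a12* at 0.01 were above it. Without wild-type 2 the median was -0.52, 6 of the 14 passed the threshold and 13 were below 0. *Slc27a2* was then at -0.19, *Slc34a1* at -0.55, *Gatm* at 0.09 and *Slc5a12* at -0.06. Taken relative to the mean log2 level of these markers, the difference of the Cyp2d sum was -0.64 and that of the Cyp2a sum -0.68, against -1.02 and -1.06 before. The part of proximal tubule content in the members' differences was not tested.

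Liver markers were examined since the members are liver genes. *Ahsg* had no count in any library and *Alb*, the gene for serum albumin, had a low FPKM of 1.81, 1.70 and 2.23 in *Ptpn6*+/mev and 3.68, 6.29 and 5.35 in wild-type replicates 1, 2 and 3. The groups were apart for *Alb*, with a log2 fold change of -1.49 (SE 0.27, FDR 0.0852, and 0.0349 without wild-type 2). Together the 7 markers summed to 71.8 to 77.0 in *Ptpn6*+/mev and 88.9 to 113 in wild-type kidneys. None of the 5 tested passed the threshold, against 2 with the exact test and 3 with DESeq2, and 3 were lower at an unadjusted p under 0.05, and the median was -0.94, with *Fgb* at -0.94 (SE 0.21, FDR 0.122) and *Ttr* at 0.31 (SE 0.22, FDR 0.640, and 0.54 without wild-type 2). Tubular injury markers had none of 8 past the threshold (1 higher with the exact test, 2 with DESeq2), with 1 lower and 4 higher at an unadjusted p under 0.05, and a median of 0.21. Over all 13036 genes tested, 721 were higher at that unadjusted p. The most abundant injury markers, *Spp1* at -0.38 and *Lcn2* at -0.08, were below 0, while *Havcr1* at 0.27, *Vcam1* at 1.05, *Krt8* at 0.28 and *Krt18* at 0.55 were higher in every *Ptpn6*+/mev kidney. The groups overlapped for *Krt20* at 0.16 and *Sox9* at -0.08. Without wild-type 2 the median was 0.34, and 2 of the 8 passed the threshold as higher, against 93 of all 13177 genes tested. *Spp1* was then at -0.22, *Lcn2* at 0.26, *Krt20* at 0.63 and *Sox9* at -0.19. Distal nephron markers had none of 6 past it, with 1 lower and none higher at an unadjusted p under 0.05, and a median of -0.31, *Umod* at -0.13 and *Aqp2* at -0.54. Without wild-type 2, 5 of the 6 were above 0 and the median was 0.14, with *Umod* at 0.02 and *Aqp2* at 0.29. In macrophage, endothelial and blood markers no gene passed the threshold or an unadjusted p of 0.05, with medians of 0.23, 0.21 and 0.16, which turned to -0.09, -0.13 and -0.05 without wild-type 2. The most abundant of these markers were *Lyz2* at 0.42, *C1qa* at 0.07, *Egfl7* at 0.09, *Pecam1* at 0.18, *Hbb-bs* at 0.09 and *Hba-a1* at 0.19, and without wild-type 2 these were 0.14, -0.13, -0.10, -0.22, -0.17 and 0.04 in the same order.

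**Figure D5:**
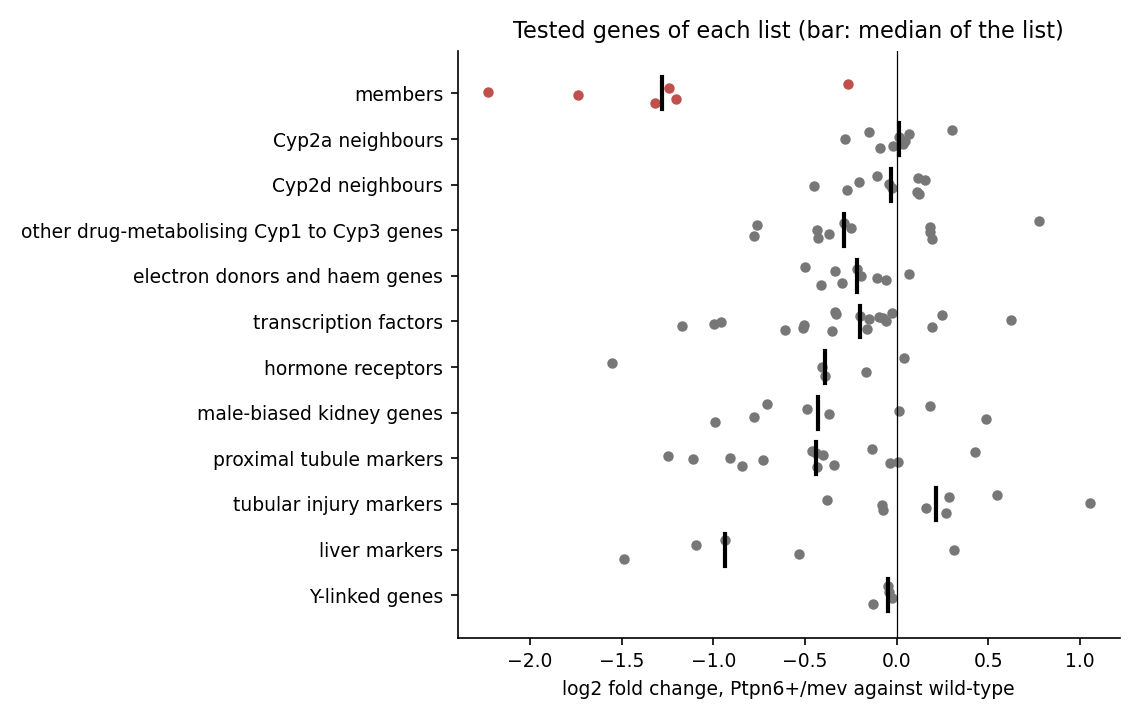
Log2 fold change of *Ptpn6*+/mev against wild-type (horizontal axis) of every tested gene in each gene list, 1 point per gene, with the list's median as a bar and the members on top in red. The members have a median of -1.28, the neighbours of the Cyp2a and Cyp2d clusters 0.01 and -0.03, and the proximal tubule markers -0.44.

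The genes whose levels followed the members most closely over the 6 libraries were ranked by Pearson's r of log2(FPKM + 1) among 11868 genes, as a description over few points that share 2 genotypes. For the Cyp2a sum they were *Mapre3* (0.991), *Zc4h2* (0.988), *Dpys* (0.985), *Ralgapa2* (0.984) and *Ptges* (0.980). For the Cyp2d sum they were *Xiap* (0.991), *Ibtk* (0.984), *BC035947* (0.983), *Echdc3* (0.982) and *Ugt1a7c* (0.981). The last of these encodes a glucuronosyltransferase, an enzyme of drug conjugation, with a mean FPKM of 93.5 in *Ptpn6*+/mev and 148 in wild-type kidneys. No gene was in both lists.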

How the data were processed

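Left kidneys of 3 *Ptpn6*+/mev and 3 wild-type mice were sequenced as poly-A mRNA, 1 library per mouse as the labels number them. The authors aligned read pairs to GRCm38.p5 (Ensembl annotation) with TopHat and evaluated expression with Cufflinks, and the submitters' processing notes also name Bowtie2, TopHat2 2.0.3.12 and RSEM. The deposited table holds, per library, an estimated count (fractional in some library for 1744 of 21367 genes) and an FPKM value computed by the authors. The tool that made the counts, and whether counting used strand, are not given in the sources used here.

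Estimated counts were rounded. Genotypes were compared with edgeR 4.0.16 (R 4.3.3): TMM, filterByExpr, quasi-likelihood test, Benjamini-Hochberg adjustment over 13036 genes, threshold 0.05. The p-values measure only the spread between these libraries. Sums of members are in FPKM and carry no p. The scripts were tested on simulated data. Alternatives were other size factors, upper quartile normalization, DESeq2 1.42.0, edgeR's exact test, limma 3.58.1 on log2(FPKM + 1) or log2(FPKM + 0.1), no filter, at least 10 counts in every library, a replicate block and each library left out. Sums relative to proximal tubule markers were added after seeing the data. Positions and coding sequences came from GENCODE M21 (GRCm38) and promoters from RefSeq, read with Python 3.11.15 and Biopython 1.88.

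The members and lists were chosen with earlier results of these data known. Named genes were all members, detected relatives, *Ptpn6*, the called (at most 3) and the 2 most abundant genes of each list, and the 5 genes most like each sum (mean FPKM of at least 1). *Por*, *Alb*, *Ahsg*, *Havcr1*, *Vcam1*, *Krt8*, *Krt18*, *Krt20*, *Sox9*, *Gatm*, *Slc5a12*, *Cyp4a12a*, *Cebpa*, *Dbp*, *Tef*, *Nr1i2* and relatives without counts were named after their values were seen. Values of 1 listed gene are not reported here.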

Additional observations from a re-analysis of the deposited data

How the results depend on the processing

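All 90 alternative fold changes of the 6 tested members, 15 for each, were lower in *Ptpn6*+/mev, and 10 of them fell on the other side of the threshold: for *Cyp2d9* and *Cyp2d12* under the replicate block and without each *Ptpn6*+/mev library, and for *Cyp2a4* with DESeq2 and edgeR's exact test, where it passed. The number of members called was 2, and 0 to 2 when 1 library was left out. It was 0 with the replicate number as a block, where the FDR was 0.0892 for *Cyp2d9* and 0.141 for *Cyp2d12*. Samples with the same number did not deviate together (correlations of -0.144, -0.184 and -0.130). These 3 correlations of deviations from group means of 3 libraries cannot exclude that the number pairs the mice. The number of genes called in the other lists was 1, against 20 with DESeq2, 18 with edgeR's exact test, 2 with no filter, 0 with limma at either pseudocount and 0 with the replicate block. It was 0 to 13 when 1 library was left out, the 13 without wild-type 2 and 4 without wild-type 3. Genes called lower were 9 of all tested, and 144 without wild-type 2. The cause of these changes was not tested. The difference of the Cyp2d sum was -1.02, and -1.60 without *Cyp2d26* and -0.64 relative to proximal tubule markers. It was -1.19 to -0.89 when 1 library was left out, and that of the Cyp2a sum -1.31 to -0.71. Depth limits *Cyp2d10*, *Cyp2d11* and, at 27 to 34 counts in *Ptpn6*+/mev, *Cyp2d12*.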
